A study of Triticum aestivum with 4 samples.

Results

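A transcript that resembles a TCP transcription factor and the transcripts of the gibberellin 20-oxidase GA20ox1 were followed in flag leaves of UD-2 and WT wheat. They were read by every probe set of 3 wheat sequence clusters on the array, which are 4 of its 61290 probe sets and are called by their genes below. UD-2 is spring wheat CB037 that carries ZmDof1, a maize transcription factor, behind the constitutive UBI4 promoter of sugarcane (event pPTN1034-NN569-3-5-1), and WT is CB037 without the transgene. Flag leaves were taken at anthesis from plants in pots, watered and fertilized normally, in a greenhouse with a 10/14 h photoperiod at 29°C by day and 24°C at night. Each line was measured on 2 arrays, and each array held RNA pooled from 3 plants that were in no other pool. UD-2 is 1 transformation event, so that what the transgene does and what is particular to this event cannot be told apart. A whole leaf was sampled, so that fewer cells of a type and less RNA per cell cannot be told apart either.

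TCP factors are plant transcription factors that act on cell division and growth. The class that is cut by the microRNA miR319 is known in Arabidopsis for setting leaf shape and the timing of leaf maturation. Gibberellins are hormones that drive stem and leaf elongation. GA20-oxidases are 2-oxoglutarate-dependent dioxygenases that carry out the late steps leading to the direct precursors of the active hormones, and loss of one of them underlies a semi-dwarf type of rice. Bread wheat is hexaploid and often has a copy of a gene, a homoeologue, in each of its A, B and D subgenomes.

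The cluster of the TCP match holds 1 probe set, Ta.7158.1.S1_at, which the study's annotation matches to an Arabidopsis TCP factor that is regulated by miR319. The platform annotation used here gives no wheat gene for it. A second cluster holds 2 probe sets, Ta.141.1.S1_at and Ta.141.1.S1_x_at, assigned to the D homoeologue, GA20ox1D (LOC543325), and called below by the ends of their names, _at and _x_at. An ending of _x_at marks probe sets with probes that may also bind other transcripts. The third cluster holds 1 probe set, Ta.23667.1.S1_at, of the B homoeologue, GA20ox1B (LOC543326). The A homoeologue, GA20ox1A (LOC543327), is read by Ta.23668.1.S1_at, which is not among the 4 and is set beside them below. The homoeologues were named through gene identifiers in the RefSeq annotation of the IWGSC CS RefSeq v2.1 assembly.

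The 4 probe sets were chosen by their signals in UD-2 and WT on these same arrays, so that their differences are a description, with no p-value given, and a call among them supports nothing. The values are log2 signals after robust multiarray average (RMA), 1 per probe set and array, so that a difference of 1 is a doubling. Medians of the 4 arrays lay between 4.53 and 4.60. The background level was set on each array as the 95th percentile of 42 control probe sets for Bacillus genes, at 3.93 to 4.17, and 56.2% to 58.9% of the 61115 probe sets other than controls lay above it. The log2 differences of single probe sets had an SD of 0.26 between the UD-2 arrays and 0.26 between the WT arrays, against 0.33 to 0.43 between arrays of different lines. The leaf genes PsbO and PsbP, which serve water oxidation in photosynthesis, were read by 3 probe sets with mean log2 signals of 11.42 to 13.30. Of 17 probe sets for grain storage proteins, which a leaf should lack, 13 did not exceed background on any array. The brightest of the 17 had a mean log2 signal of 10.52 and is described below. These 17 were matched by synonyms chosen after the values were seen.

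The TCP match was bright in WT and close to background in UD-2. Its log2 signal was 3.94 and 4.16 in UD-2, while WT had 9.64 and 10.49. Both UD-2 pools lay below both WT pools, as on 25.9% of all probe sets, and the closest arrays of different lines were 5.48 apart. The UD-2 mean was 4.05 ± 0.16 and the WT mean 10.07 ± 0.60 (SD, n = 2 each), a log2 difference of −6.02 with a standard error of 0.28 from limma. The signal was thus 64.9-fold lower in UD-2. The 4 differences between single arrays of UD-2 and WT ran from −6.55 to −5.48. Only 2 of the 61115 probe sets had a lower log2 difference.

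**Figure D1:**
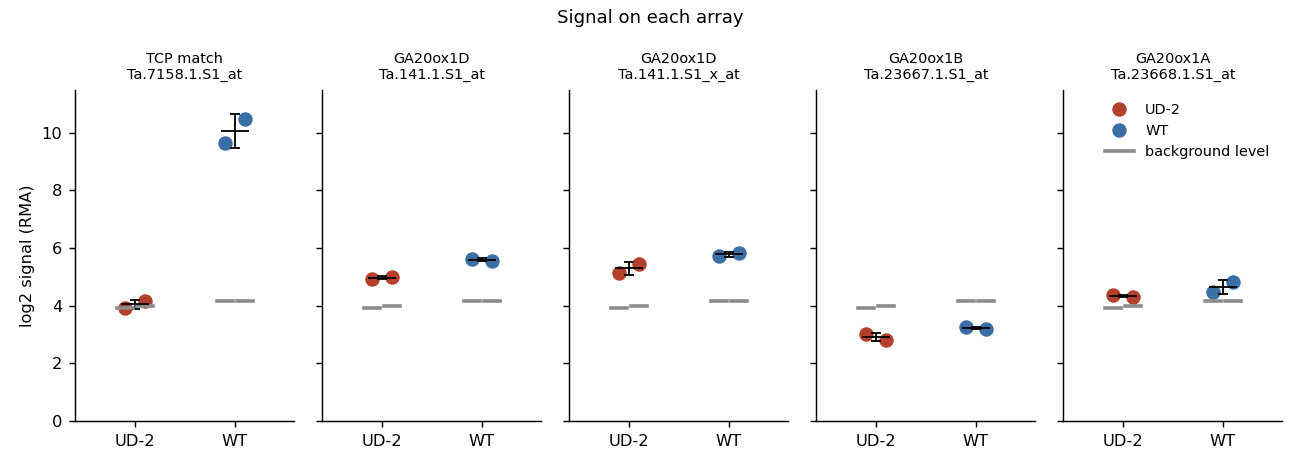
Log2 signal (RMA) of each array, UD-2 left and WT right, for the 4 probe sets and for GA20ox1A. Points are arrays, black bars the mean ± SD of 2 arrays, and grey bars each array's background level. The TCP match lies near 4 in UD-2 and near 10 in WT, while the GA20ox1 probe sets differ by well under 1, and GA20ox1B is under background on all 4 arrays.

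How far below WT the TCP match lay in UD-2 depends on where the background is drawn. The UD-2 signals of 3.94 and 4.16 were barely above the background level of their own arrays, 3.93 and 3.99. With the highest Bacillus control of each array as the background level, 4.49 to 4.55, both UD-2 arrays were below it, and the transcript was at least 47.6-fold lower in UD-2. With the 95th percentile of 63 reporter controls as the level, 5.08 to 5.19, it was at least 30.4-fold lower. A further reporter control was left out, with log2 signals of 11.22 and 10.70 in UD-2, while WT had 4.62 and 5.47. These bounds set the WT mean against the background level wherever that was above the signal of a UD-2 array. Both levels were chosen after the values were seen.

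The pools of WT were unusually far apart on the TCP match. They differed by 0.85 on the log2 scale, and 99.2% of all probe sets had a smaller difference between the WT pools. Of 1923 probe sets with a mean WT log2 signal within 0.5 of its own, only 7 had a larger one, and their median was 0.12. In UD-2 the pools differed by 0.22, where the 9740 probe sets of like signal had a median of 0.15. The spread in WT was small against the difference between the lines, which was −6.44 when WT replicate 1 was left out and −5.60 when WT replicate 2 was.

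**Figure D2:**
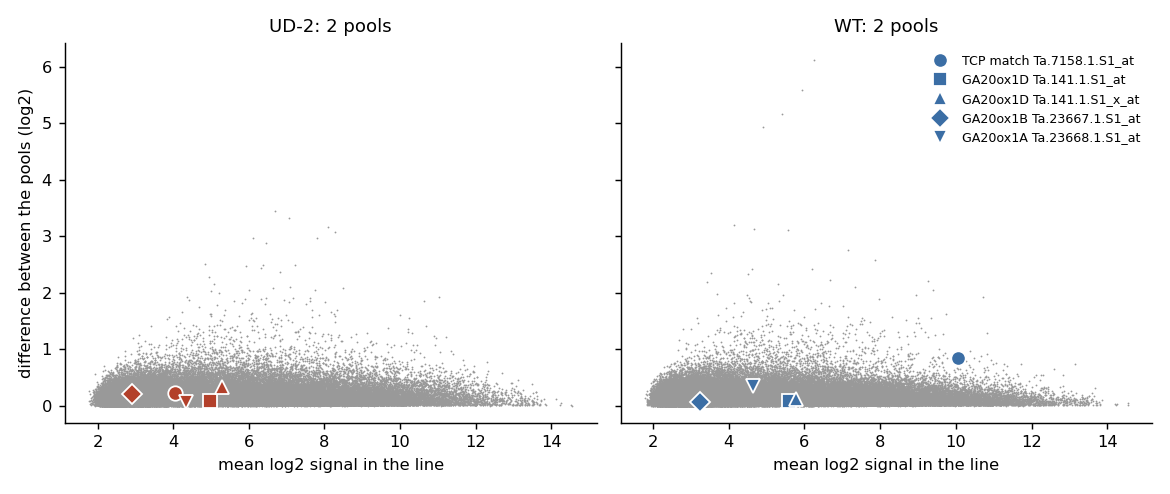
Absolute difference in log2 signal between the 2 pools of a line (y axis) against their mean log2 signal (x axis), for UD-2 on the left and WT on the right. Grey points are the 61115 probe sets tested and coloured symbols the 4 probe sets and GA20ox1A. The TCP match lies at 0.85 in WT, above nearly all probe sets of like signal, and at 0.22 in UD-2.

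GA20ox1D was also lower in UD-2 on both of its probe sets, by far less. Its _at probe set had log2 signals of 4.93 and 5.01 in UD-2, while WT had 5.62 and 5.55. The lines did not overlap, with UD-2 the lower, as on 25.9% of all probe sets. The gap between the lines was 0.54, and the pools differed by 0.08 in UD-2 and 0.07 in WT. The UD-2 mean was 4.97 ± 0.06 and the WT mean 5.59 ± 0.05 (SD, n = 2 each), a log2 difference of −0.61 with a standard error of 0.11 from limma, or 1.53-fold lower in UD-2. All 4 arrays were above the background level. With the reporter controls as the level, both UD-2 arrays were below it and both WT arrays above, and the signal was at least 1.36-fold lower in UD-2.

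The _x_at probe set of GA20ox1D gave the same direction with more spread. Its log2 signals were 5.13 and 5.46 in UD-2, while WT had 5.72 and 5.84. The lines again did not overlap, as on 25.9% of all probe sets, but UD-2 replicate 2 lay closer to WT replicate 1 than to UD-2 replicate 1. The UD-2 mean was 5.29 ± 0.23 and the WT mean 5.78 ± 0.09 (SD, n = 2 each), a log2 difference of −0.48 with a standard error of 0.15 from limma, or 1.40-fold lower in UD-2. Leaving out UD-2 replicate 1 gave −0.32, and leaving out UD-2 replicate 2 gave −0.65. The signal of the _x_at probe set exceeded that of the _at probe set by 0.20 and 0.45 in the UD-2 pools and by 0.09 and 0.29 in the WT pools.

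GA20ox1B was not measurable in these leaves. Its log2 signals were 3.02 and 2.82 in UD-2, while WT had 3.26 and 3.20, all under the background level of their arrays. The lower signals were those of UD-2, but no fold is given for a probe set that was not above background in either line.

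GA20ox1A, which was not among the chosen probe sets, was dim and did not pass the test. Its log2 signals were 4.37 and 4.31 in UD-2, while WT had 4.46 and 4.82. The lines were separated by only 0.10, less than the spread of the WT pools. The log2 difference was −0.30 with a standard error of 0.15 (adjusted p = 0.265 from limma, unadjusted p = 0.0933), and it was −0.13 when WT replicate 2 was left out and −0.48 when WT replicate 1 was. Its level was close to background: 1 of 4 arrays, WT replicate 2, exceeded the highest Bacillus control, and 0 of 4 exceeded the level of the reporter controls. No bound is given, since WT replicate 1 was itself under both of these levels. Whether the homoeologues differ from each other in response was not tested.

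**Figure D3:**
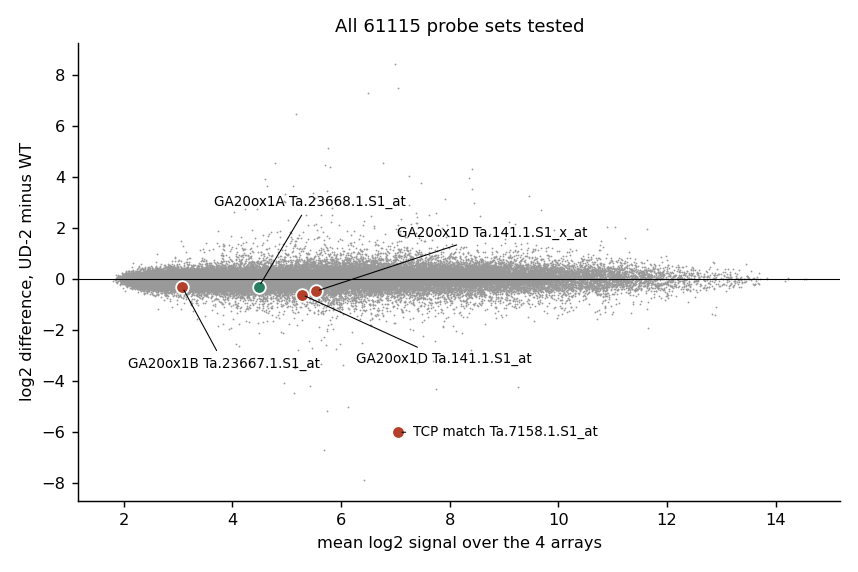
Log2 difference between UD-2 and WT (y axis, UD-2 minus WT) against the mean log2 signal over the 4 arrays (x axis). Grey points are the 61115 probe sets tested, red points the 4 probe sets and the green point GA20ox1A. The TCP match stands apart at −6.02, while the GA20ox1 probe sets, between −0.61 and −0.30, lie at the lower edge of the main cloud or within it.

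Across the array, 0.712% of the 61115 probe sets passed an adjusted p of 0.05 from limma, 0.43% as higher and 0.281% as lower in UD-2, and 1 of the 4 probe sets, the TCP match, was among the lower ones. The share was 0.393% with Benjamini-Hochberg adjustment and 17.1% at an unadjusted p of 0.05. With each array centred on its median, 28.6% of the calls were lower in UD-2 (797 higher and 319 lower), in place of 39.5% (263 higher and 172 lower). Both UD-2 pools lay below both WT pools on 25.9% of all probe sets and above them on 22.2%, so that such a separation is common, and all 4 probe sets had the first kind. The median log2 difference of all probe sets was −0.02. Ranked from the lowest difference, the _at probe set of GA20ox1D was number 1454 and its _x_at probe set number 2586 of 61115, and GA20ox1A was number 6984. Nothing is read from these counts and ranks, since the 4 were chosen with this comparison known.

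The sizes changed little with the normalization. Quantile normalization, centring on the array median and cyclic loess gave log2 differences from −6.07 to −5.97 for the TCP match, from −0.58 to −0.56 for the _at probe set of GA20ox1D and from −0.46 to −0.43 for its _x_at probe set. For GA20ox1A they gave values from −0.25 to −0.24.

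**Figure D4:**
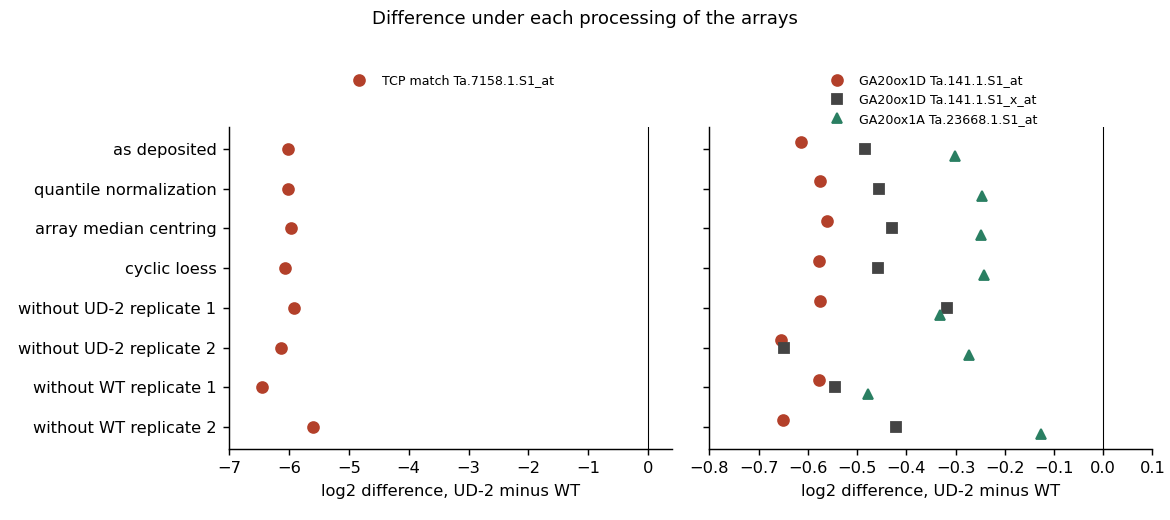
Log2 difference between UD-2 and WT (x axis, UD-2 minus WT) for the deposited values, after 3 further normalizations and with each array left out. The TCP match is on the left, and both GA20ox1D probe sets and GA20ox1A are on the right, where the axis is magnified and covers a much narrower range. All values are below 0, and those of the _x_at probe set run from −0.65 to −0.32.

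Few probe sets lay near the TCP match in pattern, as a difference of its size leaves few neighbours by itself. Likeness was measured as the distance between the 4 log2 signals of 2 probe sets, each taken relative to its own mean over the 4 arrays. The nearest was Ta.28123.1.S1_at, a match to L28, a protein of the chloroplast ribosome, at a distance of 0.86, with log2 signals of 2.26 and 2.41 in UD-2, while WT had 8.98 and 9.09. The next, Ta.611.2.S1_at at 0.87, belongs to a cluster that another probe set matches to ULP1B, an Arabidopsis ubiquitin-like protease. It had 3.18 and 3.14 in UD-2, while WT had 7.89 and 8.78, and like the TCP match it was brighter in WT replicate 2 than in WT replicate 1. The third, TaAffx.58902.1.S1_x_at at 1.18, is described as a putative subunit of the mitochondrial NADH dehydrogenase. No probe set lay within 0.25 of the TCP match. Ranked from the lowest log2 difference on the array, these neighbours were numbers 2, 4 and 5 and the TCP match number 3. Their likeness is thus mostly one of size.

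The patterns of the GA20ox1 probe sets were common ones. Within the same distance of 0.25, GA20ox1D had 1370 probe sets for _at and 2195 for _x_at, and GA20ox1B had 8320. The 3 nearest to the _at probe set of GA20ox1D, at 0.018 to 0.043, were Ta.7749.1.S1_s_at, Ta.23199.1.S1_s_at and TaAffx.27644.1.S1_at. Nearest to its _x_at probe set were TaAffx.80042.1.S1_at, Ta.24129.1.S1_at and TaAffx.129569.1.S1_s_at, and nearest to GA20ox1B were Ta.4457.1.S1_at, TaAffx.85339.1.S1_x_at and Ta.16714.1.S1_s_at. The 2 probe sets of GA20ox1D were 0.26 apart from each other, and the TCP match was 5.45 or more from each of the GA20ox1 probe sets. Distances over 4 arrays describe these arrays only, and a probe set with a small difference has many neighbours by its size alone.

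**Figure D5:**
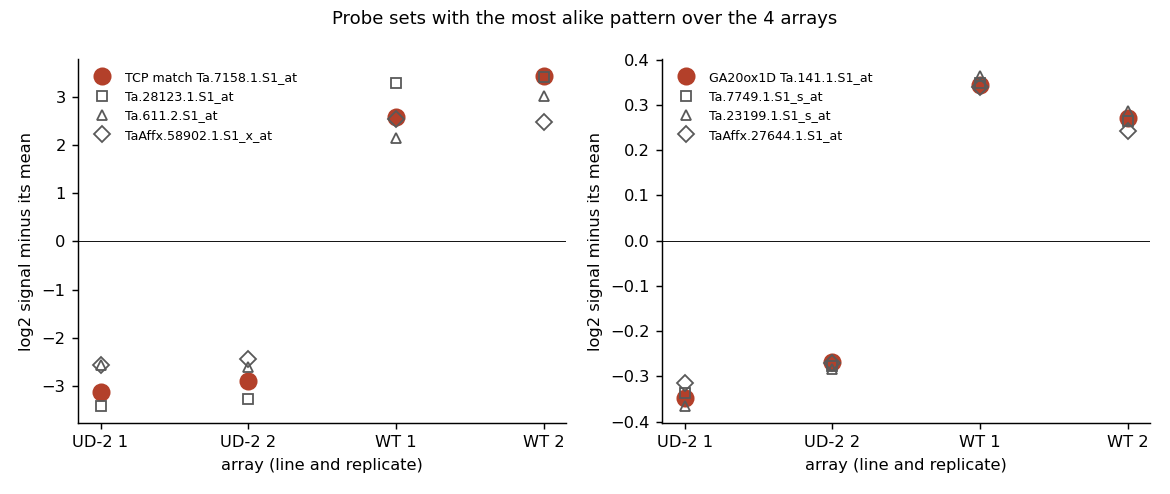
Log2 signal of each array relative to the probe set's own mean (y axis), for the arrays of UD-2 and WT (x axis). Red points are the TCP match on the left and the _at probe set of GA20ox1D on the right, and open symbols are the 3 probe sets nearest to each. The neighbours of the TCP match lie 0.86 to 1.18 from it, those of GA20ox1D within 0.043.

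Of the wider growth pathways, the search by gene name found almost nothing on this array. Of 9 lists looked up by gene name, 7 held no probe set beyond those described: gibberellin signalling, TCP and growth-regulating factors, KNOX factors, other 2-oxoglutarate dioxygenases, the cell cycle, other growth hormones, and Dof factors. The gibberellin metabolism list added only GA20ox1A, with the values given above. The list of wall-loosening proteins held 1 probe set, Ta.30703.1.S1_at, of a xyloglucan endotransglucosylase (XTH), an enzyme that cuts and rejoins wall polymers. Its log2 signal was 5.57 and 5.58 in UD-2, while WT had 5.49 and 5.63, and the lines overlapped (log2 difference 0.01, adjusted p = 0.697 from limma). Of these 2 probe sets, 0 passed the test with limma, 0 with Benjamini-Hochberg adjustment and 0 at an unadjusted p of 0.05. The shares of all probe sets were 0.712%, 0.393% and 17.1%, so that nothing is read from 0 of 2. Some search terms were worded as gene descriptions, while only symbols and synonyms were searched. An empty list thus does not show that the array lacks these genes. Probe sets without a gene name may also read other members of these pathways.

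None of the tissue markers passed the test, which 0.712% of all probe sets passed (17.1% at an unadjusted p of 0.05 from limma). PsbO and PsbP are photosystem II subunits, and the study reports lower expression of photosystem II subunit genes in UD-2. They are thus not neutral markers of leaf tissue here. The Rubisco small subunit, Rubisco activase and chlorophyll a-b binding proteins were also looked up by name and matched no probe set. Their terms were partly worded as descriptions, which were not searched, so that the array may still hold probe sets for them. The summed linear signal of the 3 PsbO and PsbP probe sets was between 20447 and 20652 in UD-2, while WT had between 23084 and 25441. Their log2 differences were −0.28, −0.13 and −0.47, with adjusted p-values of 0.213, 0.408 and 0.213 from limma, so that 0 of 3 passed the test (0 at an unadjusted p of 0.05). The summed signal of the 17 storage protein probe sets was between 1840 and 1985 in UD-2, while WT had between 1452 and 1548, and 0 passed the test (1 at an unadjusted p of 0.05). The sum was higher in UD-2 through that one alone, Ta.27777.1.S1_at, as the other 16 summed to between 211 and 219 in UD-2, while WT had between 220 and 235, and 10 of the 17 had a log2 difference below 0. It reads an avenin-like protein, with 10.79 and 10.66 in UD-2, while WT had 10.27 and 10.36 (log2 difference 0.42, adjusted p = 0.135 from limma), and was singled out after its values were seen. The part of such differences in the lower GA20ox1D and TCP signals was not tested.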

How the data were processed

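RNA from flag leaves of 2 UD-2 and 2 WT pools was hybridised to Affymetrix GeneChip wheat arrays. The deposited log2 values, which the authors obtained with RMA in the Affy package, were used as they stand. R 3.1.1 and limma are listed in the submitters' processing notes, without a version of Affy. RMA normalizes the arrays together and so removes shifts that all probe sets share, and precision is limited by having only 4 arrays.

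The lines were compared by limma 3.58.1 (lmFit, eBayes, in R 4.3.3), UD-2 minus WT, without covariates, over the 61115 probe sets left after removing 175 controls. Following the study's methods, p-values were adjusted over all of them after Storey and Tibshirani, with a threshold of 0.05. This fit called more probe sets than the study reports, and the reason was not tested. Python 3.11.15 with pandas 2.3.3 and matplotlib 3.10.9 drew the figures. The code was checked on simulated data with independent noise, its spreads drawn from limma's own fit. That check thus says nothing about the spread between real pools. The platform annotation gives 1 gene for 1273 probe sets, and lists were matched on symbols and synonyms. The probe sets named were the 4 members, the 3 nearest to each and the listed genes. The members, lists and tests were chosen with earlier results of these data known. Storage proteins were matched by synonyms chosen after the values were seen, since the names set first held no probe set. Nothing says that the pools of a line came from separate sowings, so that p-values measure only the spread between these pools. Plant height and biomass, which the study measured in other experiments, were not analysed here, and no sequence of a probe, protein or microRNA was used here.

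Alternatives covered the p-value adjustment (Benjamini-Hochberg, or lambda fixed at 0.5), eBayes with a trend or robust, the probe sets entered (without dim ones, or with controls), 3 normalizations, the replicate number as a block, and each array left out in turn. The other background levels were added after the values were seen.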

Additional observations from a re-analysis of the deposited data

How the results depend on the processing

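With the other background levels, the log2 difference of the TCP match was at most −4.93 (reporter controls) or −5.57 (highest Bacillus control), and that of the _at probe set of GA20ox1D at most −0.45 (reporter controls). With any 1 array left out, the log2 difference ran from −6.44 to −5.60 for the TCP match, from −0.66 to −0.57 for the _at probe set of GA20ox1D and from −0.65 to −0.32 for the _x_at probe set of GA20ox1D. The adjusted p of GA20ox1A ran from 0.173 to 0.442 over the alternatives, with an unadjusted p of 0.0269 from limma without WT replicate 1. The growth lists rest on 2 probe sets, of which 0 passed under any alternative, and with an array left out no probe set of the array passed.

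The count of probe sets past the threshold, 435, was 240 with Benjamini-Hochberg adjustment, 837 with robust eBayes, 1270 without dim probe sets, 685 after quantile normalization, 1116 with array median centring and 655 after cyclic loess. Settings that change only the p-values leave the log2 differences as they are. With the replicate number as a block, 27 probe sets passed. The deviations of same-numbered pools correlated at −0.091 across probe sets, and the labels do not say that the numbers pair the pools. With any 1 array left out, limma called between 0 and 0 probe sets, against 5114 to 8779 at an unadjusted p of 0.05, since 1 line then rests on 1 array. Signal over background limits GA20ox1B, which cannot be compared, GA20ox1A, and the size of the difference of the TCP match.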
